A study of Mus musculus with 42 samples.

Results

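A set of 10 genes was followed across the RNA-seq libraries of the study. They code for transcription factors that mark the primitive streak, mesoderm and endoderm: Mixl1, Eomes, Mesp1, Hand1, Cdx1, Cdx2, Gata4, Gata6, Foxa2 and Sox17. They were taken by symbol from the expression matrix, and all 10 were found among its 22186 genes.

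At gastrulation, WNT, NODAL and BMP signals induce the primitive streak in the posterior epiblast, and cells that pass through it become mesoderm or definitive endoderm. Mixl1 and Eomes are switched on in the streak, and Mesp1 marks the earliest mesoderm that leaves it. Hand1 is a basic helix-loop-helix factor of extraembryonic and lateral mesoderm and of trophoblast, and the caudal factors Cdx1 and Cdx2 pattern posterior tissue, Cdx2 also being a factor of the trophectoderm. Gata4, Gata6, Foxa2 and Sox17 act in endoderm, and Gata4 and Gata6 are also factors of the somatic cells of the gonad. Primordial germ cells arise beside this tissue under the same BMP and WNT signals, and in their specification Prdm1 is known to repress somatic genes.

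The cells were mouse iPSCs, Sertoli cells, granulosa cells and primordial germ cell-like cells (PGCLCs), in 14 groups of 3 libraries each. They were given bisphenol S (BPS), an estrogenic plasticizer, or its ethanol vehicle alone. The dose series exposed iPSCs for 24 h to the vehicle or to 1, 50 or 100 μM BPS, followed by 24 h without it. The Sertoli and granulosa cultures had the vehicle or 1 μM BPS on the same schedule. The directly exposed PGCLCs had the vehicle or 1 μM BPS for 24 h within their induction, and then 8 h without it. In the propagation experiment iPSCs received 1 μM BPS or its vehicle, and PGCLCs were then derived from those iPSCs without further BPS; they are called derived PGCLCs here. All iPSCs and PGCLCs came from 1 male line, reprogrammed from the fibroblasts of a single fetus, so clones cannot be compared. PGCLCs were made through an epiblast-like step with activin A and bFGF, then in aggregates with BMP4, SCF, EGF and LIF, and were sorted as FUT4+ ITGB3+ cells, a small fraction of each aggregate. Sertoli and granulosa cells were primary cultures from pooled young littermates. The labels do not say what a replicate was. By the study's methods, replicates of iPSCs, Sertoli and granulosa cells were separate flasks, the gonadal ones plated from 1 pool of cells, and PGCLC replicates came from separate batches of aggregates of the 1 line. The p-values therefore cover the spread between such cultures and not that between animals or lines.

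Values are CPM, read counts scaled to a common library size, and the libraries held 26693847 to 44524376 counted reads. Summed CPM of 9 germ cell markers ran from 303.6 to 684.9 in the 12 PGCLC libraries, against 418.5 to 427.4 in the vehicle iPSCs of the propagation experiment. The directly exposed PGCLCs and their vehicle controls, at 303.6 to 375.0 CPM, lay below those iPSCs. In derived vehicle PGCLCs 7 of the 9 markers were higher than in those iPSCs and 2 were lower. The germ cell gene Nanos3 averaged 3.997 CPM in those iPSCs, 11.2 CPM in direct and 15.6 CPM in derived vehicle PGCLCs, and Itgb3, used in the sort, averaged 2.43, 5.935 and 16.1 CPM. These 2 genes were chosen after their values were seen. Since the summed list was lower in direct PGCLCs than in those iPSCs, other markers of the list went the other way there. The list called naive pluripotency here has 8 genes: Pou5f1, Sox2, Nanog, Klf2, Klf4, Zfp42, Esrrb and Tfcp2l1. They summed to 1551 to 3142 CPM in PGCLC libraries and to 5308 to 5413 CPM in those iPSCs. Sertoli markers summed to 2475 to 2547 CPM in vehicle Sertoli cells, and granulosa markers to 1585 to 1703 CPM in vehicle granulosa cells. Fshr, which both supporting cell types are known to express, stood at or near 0 in PGCLCs. Among derived PGCLCs, 2 libraries stood apart from their groups. On the first principal component of the 500 most variable genes, which held 61.8% of their variance, vehicle replicates 1, 2 and 3 lay at 11.3, -7.15 and 7.40, and BPS replicates 1, 2 and 3 at -8.63, -8.42 and 5.46. Vehicle replicate 2 thus lay with the BPS libraries, and BPS replicate 3 with the vehicle libraries, and 5 of the 10 genes were among those 500. The labels were used as given, and whether these 2 are exchanged was not tested. The directly exposed PGCLCs were apart by group, with vehicle libraries at 4.79 to 9.55 and BPS libraries at -7.17 to -5.71. Even so, 1 direct vehicle library deviated from its group. The mean chi-square per gene between the reads of replicate 1 and those of replicates 2 and 3 was 40.9 and 38.2. Between replicates 2 and 3 it was 2.02, and the largest value within a derived PGCLC group was 16.9.

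Promoter sequences of RefSeq (GRCm38.p6) were at hand for 4 of the genes, Mesp1, Cdx2, Eomes and Foxa2. The 250 bases before the start of the first 3 are shown, because Mesp1 and Cdx2 changed in directly exposed PGCLCs and Eomes is the streak gene that did not pass the test there. Each reads 5′ to 3′ on the strand of its gene, and capitals mark the 6-letter TCF/LEF core CTTTGA or its reverse TCAAAG. Mesp1 lies at chr7:79793591-79793840 (minus strand), Cdx2 at chr5:147307250-147307499 (minus strand) and Eomes at chr9:118477939-118478188 (plus strand).
Mesp1: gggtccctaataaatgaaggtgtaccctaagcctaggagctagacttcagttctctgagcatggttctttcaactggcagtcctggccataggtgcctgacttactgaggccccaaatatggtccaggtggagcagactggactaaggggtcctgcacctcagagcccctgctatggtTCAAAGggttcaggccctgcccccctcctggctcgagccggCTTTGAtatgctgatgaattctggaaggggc
Cdx2: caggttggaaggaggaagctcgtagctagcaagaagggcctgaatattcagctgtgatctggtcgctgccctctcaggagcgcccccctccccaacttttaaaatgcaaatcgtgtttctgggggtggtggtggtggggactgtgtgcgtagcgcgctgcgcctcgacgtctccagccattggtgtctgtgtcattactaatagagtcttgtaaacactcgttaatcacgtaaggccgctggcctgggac
Eomes: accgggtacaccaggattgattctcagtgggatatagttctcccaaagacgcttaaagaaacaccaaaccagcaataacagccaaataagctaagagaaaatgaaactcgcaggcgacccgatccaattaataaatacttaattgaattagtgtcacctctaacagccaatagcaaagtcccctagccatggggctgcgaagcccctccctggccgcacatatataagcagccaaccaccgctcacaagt
The Mesp1 window held the TCF/LEF core at 2 places, 72 to 67 and 31 to 26 bases before the start, and the Cdx2 and Eomes windows held none. Of the 32851 promoter windows of the same length, 13.8% held the core at least once and 1.37% at 2 or more places. Other motifs were searched on both strands and were in none of the 3 windows. The T-box letters searched were AGGTGTG, which 5.1% of all windows held. For GATA factors the letters were AGATAA, held by 9.99% of windows. For CDX factors they were TTTATNG, held by 9.81%. A match gives letters in a window and no binding.

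Levels of the 10 genes differed widely between the groups. Hand1 had 0 to 7 reads in each of the 18 iPSC libraries and 1 read in all 12 Sertoli and granulosa libraries together, and 253.6 to 516.3 CPM in the 12 PGCLC libraries. Cdx2 and Cdx1 were present in both iPSCs and PGCLCs and almost absent from the gonadal cells. Gata4 and Gata6 were highest in Sertoli and granulosa cells, with lower levels in PGCLCs and the lowest in iPSCs. Mixl1, Mesp1 and Sox17 were highest in directly exposed PGCLCs, at up to 18.1, 9.66 and 4.74 CPM. Eomes was also highest in the direct PGCLC experiment, at 28.0 to 32.4 CPM, lay at 9.45 to 15.2 CPM in iPSCs, and stayed under 0.5 CPM in the gonadal cells. Foxa2 stayed at or below 0.63 CPM in every library.

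**Figure D1:**
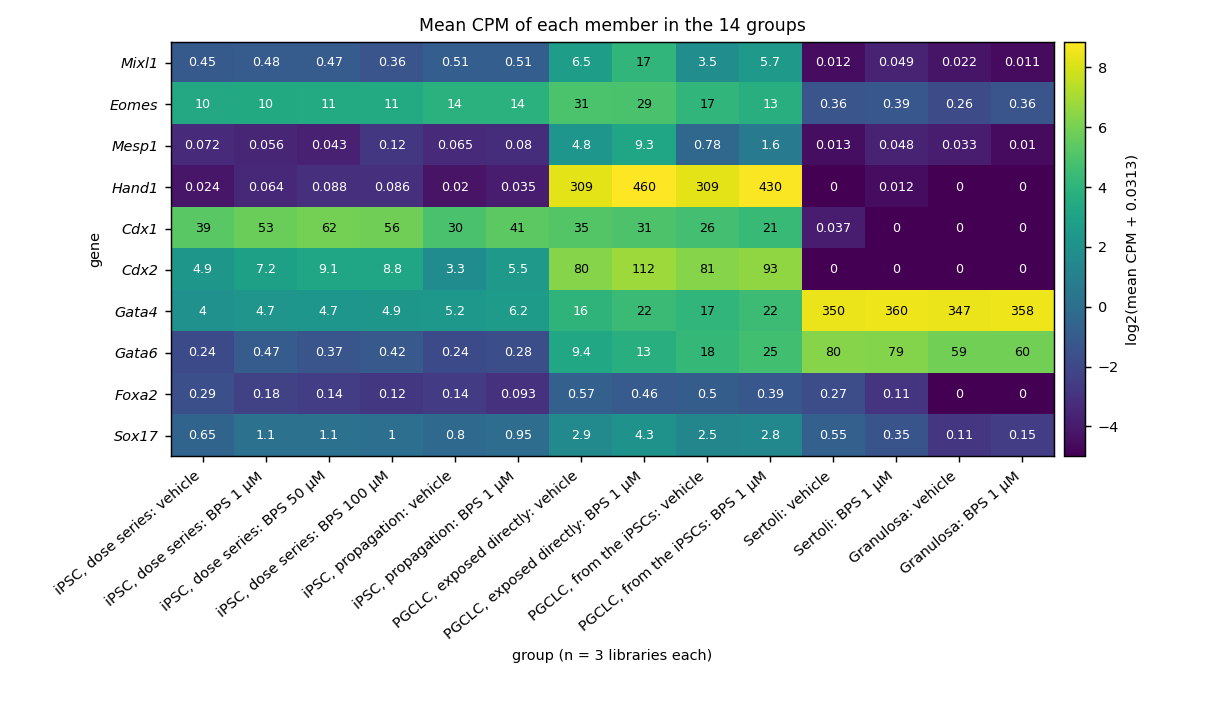
Mean CPM of the 10 genes (rows) in the 14 groups (columns, n = 3 libraries each), printed in each cell and coloured by log2(mean CPM + 0.0313). Hand1 averages 309 to 460 CPM in the 4 PGCLC groups and under 0.1 CPM in all others, while Gata4 and Gata6 are highest in the 4 Sertoli and granulosa groups.

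Per kilobase of exon, the scale on which genes can be compared, Hand1 was the highest of the 10 in vehicle PGCLCs of the direct experiment, at a mean of 154.8 CPM per kb. Cdx2 (35.4), Cdx1 (19.9) and Eomes (8.34) followed on that scale, then Gata4 (4.38), Mesp1 (3.73), Gata6 (2.91), Mixl1 (2.82), Sox17 (0.712) and Foxa2 (0.259). In vehicle Sertoli cells Gata4 led, at 95.96 CPM per kb, followed by Gata6 at 24.9.

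In the direct PGCLC experiment cells had 24 h of 1 μM BPS or vehicle while PGCLCs formed, and were taken once, after 8 h of recovery. Most of the genes differed between the 2 groups. Of the 10 genes tested, 7 rose and 1 fell at an adjusted p of 0.05 or less (limma, Benjamini-Hochberg over all genes, two-sided). Among all 16342 genes tested, 15.4% rose, 11.3% fell and 26.6% changed in either direction. The median log2 fold change was 0.47 over the 10 genes and 0.02 over all genes. Fold changes are on the log2(CPM + 0.0313) scale, which understates changes of genes with few reads. In these bulk libraries, more cells of a type in the sorted fraction and more RNA per cell cannot be told apart.

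**Figure D2:**
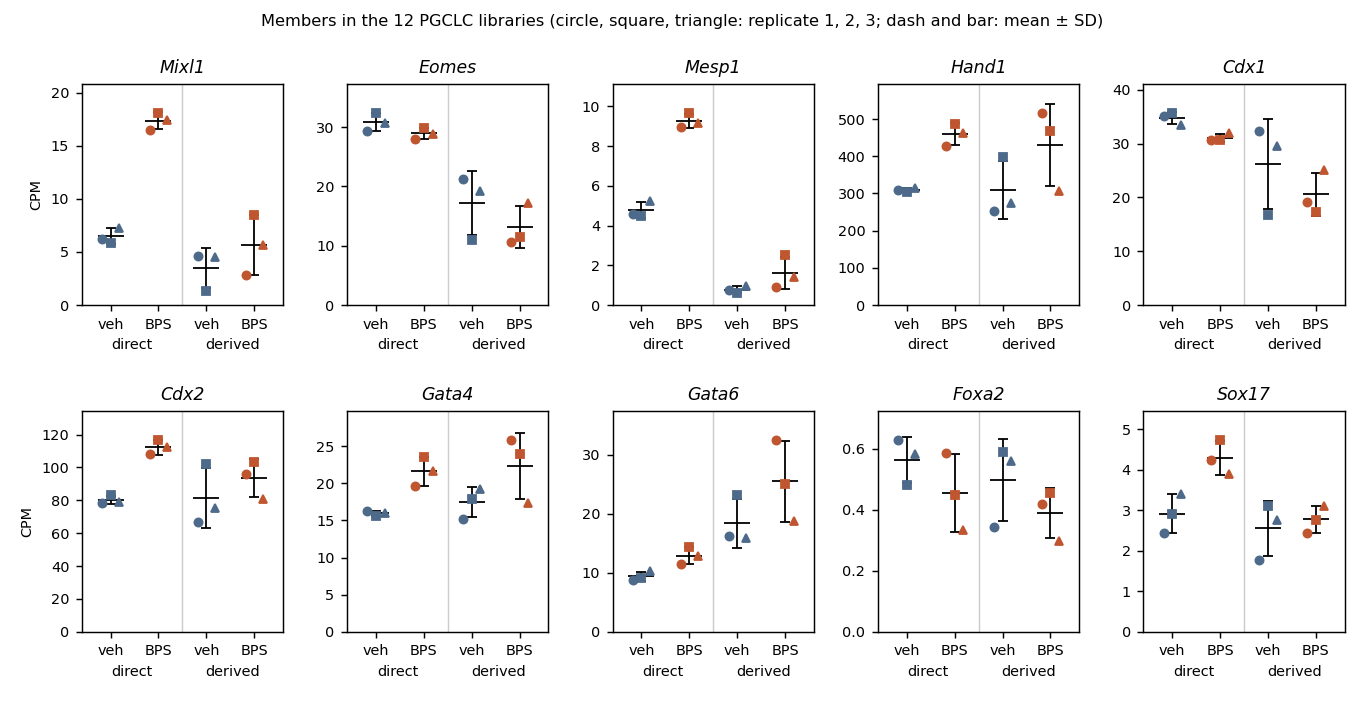
CPM of each gene in the 12 PGCLC libraries (y axis from 0), with vehicle (blue) and BPS (orange) of the direct experiment on the left and of the derived PGCLCs on the right; the dash and bar give mean ± SD of 3 libraries. The direct groups are apart for 8 genes, with Mixl1 at 16.5 to 18.1 CPM under BPS and 5.86 to 7.30 CPM under the vehicle, while the derived groups overlap for all 10 genes.

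Mixl1, the homeobox gene of the streak (chr 1, 180693043 to 180697034), changed most. It stood at 6.27, 5.86 and 7.30 CPM under the vehicle and at 16.5, 18.1 and 17.45 CPM under BPS, so that every BPS library was above every vehicle library. The log2 fold change was 1.42 ± 0.09 (SE, n = 3 and 3, limma adjusted p = 3.53e-08).

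Mesp1, the early mesoderm gene whose promoter is shown above, was at 4.59, 4.47 and 5.22 CPM under the vehicle and at 8.97, 9.66 and 9.14 CPM under BPS. The groups did not overlap, and the log2 fold change was 0.96 ± 0.09 (SE, limma adjusted p = 3.79e-06). Eomes, a T-box gene of the streak, went the other way by a small amount: 29.3, 32.4 and 30.6 CPM under the vehicle and 28.0, 29.9 and 28.9 CPM under BPS. Its groups overlapped and it did not pass the test (log2 fold change -0.09, 95% interval -0.20 to 0.02, limma adjusted p = 0.214).

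Hand1 was at 308.0, 305.1 and 314.0 CPM under the vehicle and at 428.5, 486.5 and 463.7 CPM under BPS. The lowest BPS library stood above all vehicle libraries (log2 fold change 0.57 ± 0.04 SE, limma adjusted p = 1.03e-07). Cdx2 was at 78.34, 82.95 and 78.97 CPM under the vehicle and at 107.9, 116.8 and 112.2 CPM under BPS, with a log2 fold change of 0.49 ± 0.04 (SE, limma adjusted p = 4.61e-07). Its paralog Cdx1 was at 35.2, 35.7 and 33.5 CPM under the vehicle and at 30.6, 30.8 and 31.9 CPM under BPS. It fell by 0.16 on the log2 scale (SE 0.05, limma adjusted p = 0.0164). Leaving out a vehicle library ended that call for replicate 1 (limma adjusted p = 0.0565) and replicate 2 (0.0763).

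Among the endoderm factors, Gata4 was at 16.2, 15.6 and 16.1 CPM under the vehicle and at 19.7, 23.5 and 21.7 CPM under BPS (log2 fold change 0.44 ± 0.07 SE, limma adjusted p = 2.11e-04). Gata6 was at 8.86, 9.14 and 10.3 CPM under the vehicle and at 11.5, 14.4 and 12.8 CPM under BPS (log2 fold change 0.45 ± 0.09 SE, limma adjusted p = 0.00160). Sox17 was at 2.45, 2.90 and 3.41 CPM under the vehicle and at 4.23, 4.74 and 3.904 CPM under BPS. The groups of each of these 3 genes did not overlap, and Sox17 had a log2 fold change of 0.56 ± 0.14 (SE, limma adjusted p = 0.00784, and 0.0697 with no filter on low genes). Foxa2, the forkhead factor of endoderm and node, had 10 to 21 reads in each of the 6 libraries, and its difference was not detectable at this depth (log2 fold change -0.32, 95% interval -0.97 to 0.34, limma adjusted p = 0.488).

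These calls rested on the spread within the 6 libraries. With all 42 libraries in 1 fit, which gives each gene a single spread over 14 groups, 2 of the 10 genes passed, Cdx2 and Gata4. Over all genes 1619 of 19591 passed there, 944 higher and 675 lower, which is the background for later counts of the direct experiment from that fit. The fold changes of the other genes were the same in that fit. Mixl1 stood at a limma adjusted p of 0.0520, Mesp1 at 0.263, Gata6 at 0.394, Sox17 at 0.526, Hand1 at 0.551 and Cdx1 at 0.826. That single spread also took in groups with few reads, such as the iPSCs for Hand1 (0 to 7 reads per library).

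Naive pluripotency and germ cell genes moved with these results. All 8 genes of the naive pluripotency list, which also holds Pou5f1, Sox2 and Nanog, fell in directly exposed PGCLCs. Of the 9 germ cell markers 5 fell and none rose, the sort marker Itgb3 being 1 of the 5. Among all genes 11.3% fell. The first list summed to 3060, 3142 and 3133 CPM under the vehicle and to 2638, 2366 and 2419 CPM under BPS. Esrrb fell by 0.48, Klf4 by 0.46 and Tfcp2l1 by 0.41 on the log2 scale (limma adjusted p = 1.08e-07, 3.67e-07 and 5.56e-07). Of the germ cell genes, Prdm14, which keeps germ cells from somatic fate, fell by 0.46, Kit by 0.33 and Tfap2c by 0.18 (limma adjusted p = 1.75e-05, 3.79e-05 and 0.00786). With all 42 libraries in 1 fit, 3 naive pluripotency genes and 0 germ cell markers passed, and 2 germ cell markers did with no filter. The sorted markers themselves stood at 5.86 to 6.06 CPM (Itgb3, vehicle) and 4.48 to 5.16 CPM (BPS), and at 5.99 to 6.72 CPM (Fut4, vehicle) and 6.50 to 8.45 CPM (BPS). The part of these shifts in the results above was not tested.

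Some markers of other cells were also called, where 15.4% of all genes rose and 11.3% fell. Median log2 fold changes of the tested genes were 0.10 for fibroblasts, -0.03 for trophoblast and -0.32 for Sertoli cells. They were -0.51 for granulosa cells, and -0.01 both for primed epiblast and for erythroid and endothelial genes. Fibroblast markers summed to 93.1 to 98.8 CPM under the vehicle and 110.3 to 121.9 CPM under BPS, with 2 of 5 tested genes higher, Pdgfrb by 0.60 and Col1a1 by 0.22 on the log2 scale. The 8 trophoblast genes summed to 61.3 to 62 and 64.3 to 67.6 CPM, with 1 higher (Gata3, by 0.25), and 2 further genes of that list, Elf5 and Tpbpa, are not analysed here. Sertoli markers summed to 37.3 to 41.7 and 31.1 to 32.9 CPM, and 2 of 4 tested were lower, Rhox5 (-0.49) and Dhh (-0.66). Granulosa markers summed to 6.88 to 7.84 and 5.19 to 5.57 CPM, and both tested genes were lower, Inha (-0.45) and Amhr2 (-0.56). Primed epiblast genes summed to 139.3 to 146.7 and 147.8 to 169.0 CPM, with 1 of 5 higher, Dnmt3b (0.25). The 4 erythroid and endothelial genes summed to 30.3 to 33.3 and 27.6 to 29.2 CPM, with 1 of 2 tested lower, Pecam1 (-0.15). Their part in the results was not tested.

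The wider streak and mesoderm program was read from 32 other genes. Of the 29 tested in the direct experiment, 15 rose and 1 fell, where 15.4% of all genes rose and 11.3% fell. Their median log2 fold change was 0.28. The genes with the smallest adjusted p were the posterior homeobox gene Evx1 (0.61 ± 0.05 SE, limma adjusted p = 1.93e-06), the mesenchymal factor Twist1 (0.56 ± 0.05 SE, limma adjusted p = 4.71e-06) and Snai1, a driver of the epithelial-mesenchymal transition (0.48 ± 0.05 SE, limma adjusted p = 8.22e-06). The 1 that fell was Tbx3, by 0.08. In the fit of all 42 libraries 5 of the list passed.

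Of the 18 endoderm genes tested from a list of 24, 4 rose and 2 fell, where 15.4% of all genes rose and 11.3% fell, and their median log2 fold change was 0.03. Sparc, a basement membrane gene strong in parietal endoderm, rose by 0.13 and Hhex, of anterior endoderm, by 0.54, while the laminin gene Lama1 fell by 0.20 (limma adjusted p = 0.00406, 0.00487 and 0.00112). In the fit of all 42 libraries none of this list passed, and 11 passed without BPS replicate 1 of the direct experiment.

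Signals upstream of the streak changed in both directions: 11 of 22 rose and 5 fell, with a median of 0.07. Among all genes 15.4% rose and 11.3% fell. Nkd1, a feedback target of WNT signaling, rose by 0.87 ± 0.07 (SE, limma adjusted p = 3.41e-07). Tdgf1, the NODAL co-receptor, fell by 0.38 ± 0.03 (SE, limma adjusted p = 1.99e-07) and the growth factor gene Fgf4 by 0.51 ± 0.05 (SE, limma adjusted p = 2.97e-06). With all 42 libraries in 1 fit, 6 of these genes passed.

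**Figure D3:**
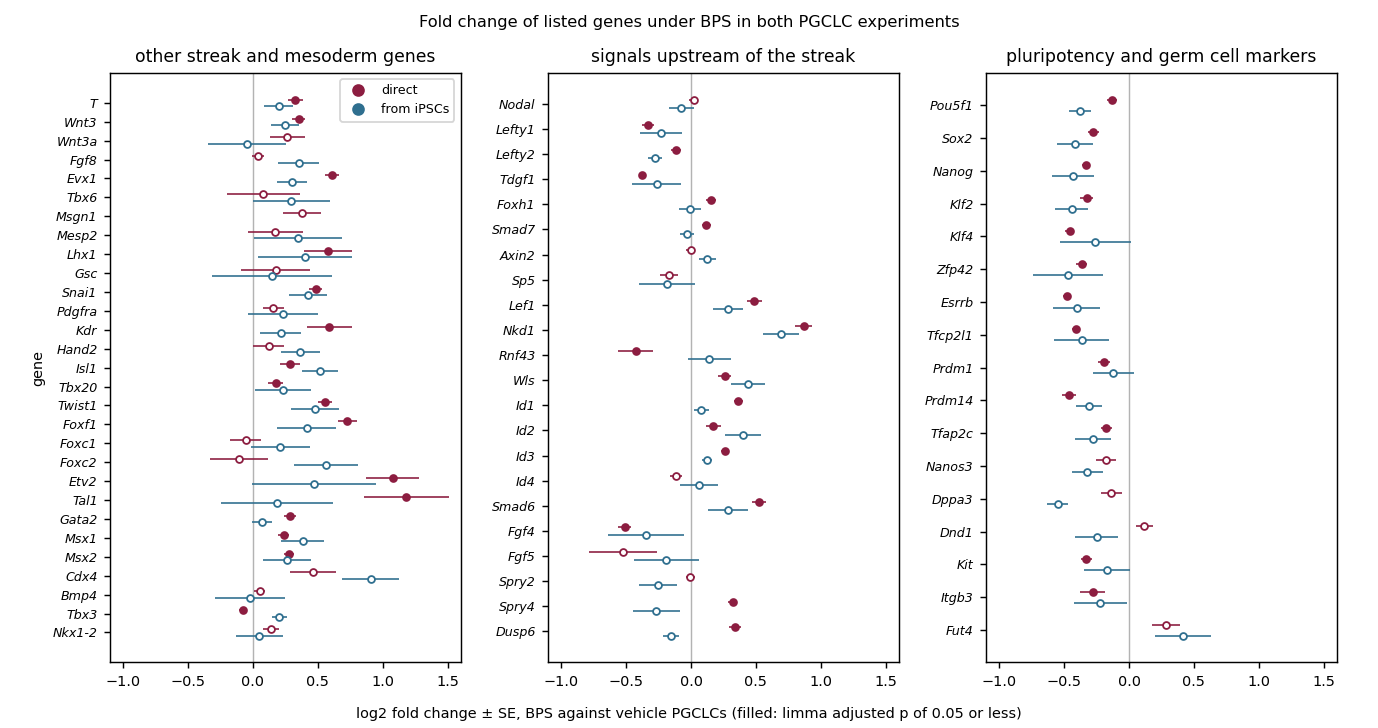
Log2 fold change ± SE of BPS against vehicle PGCLCs for listed genes (y axis; panels for streak and mesoderm genes, upstream signals, and pluripotency and germ cell markers), in the direct experiment (dark red) and in derived PGCLCs (blue); filled points have a limma adjusted p of 0.05 or less. All 8 naive pluripotency genes are below 0 in the direct experiment, 15 of 29 streak and mesoderm genes are filled above 0, and no derived point is filled. Of all genes tested in the direct experiment, 15.4% rose and 11.3% fell.

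The derived PGCLCs carry the question of whether an exposure of iPSCs is still seen in these genes after a change of cell fate. No member was called: of 9 tested (Foxa2 was below the filter), 0 passed at limma adjusted p of 0.05, 0 passed with limma-voom on reads, and 1, Mesp1, had an unadjusted p under 0.05. The background was also 0%, with 0 of 16268 genes called and 2578 at an unadjusted p under 0.05. Standard errors of the members were 0.153 to 0.548, against 0.038 to 0.31 in the direct experiment, so the derived experiment was less precise.

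Hand1 shows the spread. It was at 253.6, 397.4 and 275.1 CPM under the vehicle and at 516.3, 467.3 and 305.9 CPM under BPS, with vehicle replicate 2 above BPS replicate 3. Its log2 fold change was 0.47 (95% interval -0.03 to 0.98, limma adjusted p = 0.340). Cdx2 followed the same libraries, at 66.99, 102.0 and 75.1 CPM under the vehicle and 95.9, 103.4 and 81.1 CPM under BPS (0.22, 95% interval -0.14 to 0.57, limma adjusted p = 0.506).

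Mixl1 was at 4.66, 1.28 and 4.49 CPM under the vehicle and at 2.87, 8.50 and 5.65 CPM under BPS, where vehicle replicate 2 was the lowest of the 6 and BPS replicate 2 the highest. Its log2 fold change was 0.78 (95% interval -0.49 to 2.04, limma adjusted p = 0.502). Mesp1 was at 0.748, 0.623 and 0.955 CPM under the vehicle and at 0.926, 2.52 and 1.42 CPM under BPS (0.94, 95% interval 0.10 to 1.78, limma adjusted p = 0.281). Eomes was at 21.2, 11.04 and 19.3 CPM under the vehicle and at 10.7, 11.41 and 17.2 CPM under BPS, and Cdx1 at 32.4, 16.6 and 29.5 and at 19.2, 17.4 and 25.2 CPM. Both had negative log2 fold changes, of -0.37 (95% interval -0.98 to 0.24, limma adjusted p = 0.513) and -0.31 (95% interval -0.88 to 0.26, limma adjusted p = 0.557).

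Gata6 was at 16.2, 23.1 and 15.9 CPM under the vehicle and at 32.6, 25.1 and 18.8 CPM under BPS (0.46, 95% interval -0.04 to 0.95, limma adjusted p = 0.342). Gata4 was at 15.2, 17.9 and 19.2 CPM and at 25.9, 23.9 and 17.4 CPM (0.34, 95% interval -0.02 to 0.70, limma adjusted p = 0.330). Sox17 was at 1.78, 3.11 and 2.75 CPM and at 2.45, 2.76 and 3.11 CPM, with a difference of 0.15 (95% interval -0.37 to 0.67, limma adjusted p = 0.762). For every gene of the list the ranges of the 2 groups overlapped.

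Without vehicle replicate 2 the members stayed at 0 called, and the smallest limma adjusted p among them was 0.109, of Cdx1, whose log2 fold change was then -0.61. Without BPS replicate 3 it was 0.0842, of Gata4, with a log2 fold change of 0.52. Naive pluripotency genes summed to 2875, 2151 and 2690 CPM under the vehicle and to 1914, 1551 and 2410 CPM under BPS, so vehicle replicate 2 was the lowest of its group and BPS replicate 3 the highest of its own, as on the principal component. Fibroblast markers summed to 294.9, 419.8 and 313.4 CPM and to 478.9, 426.1 and 309.6 CPM, and germ cell markers to 486.3, 684.9 and 492.5 CPM and to 529.0, 421.3 and 447.2 CPM. Trophoblast genes summed to 53.7, 82.2 and 61.1 CPM and to 87.3, 80.01 and 70.8 CPM. The part of these in the values above was not tested.

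No gene of the other lists was called in derived PGCLCs either, except in the fit of all 42 libraries, where 721 of 19591 genes passed. They included 1 streak gene, 2 upstream signals (Nkd1 and Wls), Klf2 of the naive list and the endothelial gene Pecam1. The median log2 fold change was 0.28 over the 28 tested genes of streak and mesoderm, -0.01 over 17 genes of endoderm, -0.02 over 22 upstream signals, -0.25 over 9 germ cell markers and -0.41 over 8 naive pluripotency genes, beside 0.00 over all genes. The streak list was led by Cdx4, another caudal gene (0.91 ± 0.22 SE), Isl1 (0.52 ± 0.14 SE) and Tbx3 (0.20 ± 0.06 SE), at limma adjusted p = 0.207, 0.207 and 0.211. Cubn of visceral endoderm stood at 0.62, Apoe at -0.35 and Col4a2 at 0.24 (limma adjusted p = 0.231, 0.220 and 0.247), and the signals Nkd1 at 0.69, Lefty2 at -0.28 and Wls at 0.44 (limma adjusted p = 0.194, 0.194 and 0.219). The germ cell genes Dppa3, Prdm14 and Nanos3 stood at -0.55, -0.31 and -0.32 (limma adjusted p = 0.194, 0.233 and 0.273), and Pou5f1, Klf2 and Sox2 at -0.38, -0.44 and -0.42 (limma adjusted p = 0.207, 0.212 and 0.239).

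The difference between the BPS effects of both PGCLC experiments was tested as an interaction. Of the 10 genes 0 passed by limma, 0 by limma-voom on reads and 0 had an unadjusted p under 0.05, where 1.97% of 16894 genes passed. The differences, direct minus derived, ran from -0.01 for Gata6 (95% interval -0.55 to 0.53) to 0.64 for Mixl1 (95% interval -0.66 to 1.94). Those intervals are wide, so the members' effects in both experiments are not shown to be alike or unlike. Between derived PGCLCs and the iPSCs of the same experiment, 0 of 9 genes passed by either tool, 2 (Cdx1 and Cdx2) had an unadjusted p under 0.05, and 0.0058% of 17247 genes passed. Those differences ran from -0.74 for Cdx1 (95% interval -1.41 to -0.07) to 0.80 for Mesp1 (95% interval -0.43 to 2.03).

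Derivation of PGCLCs from iPSCs, without BPS, was compared between the vehicle groups of the propagation experiment. Hand1, Mesp1, Gata6 and Mixl1 reached the filter through the PGCLC libraries, since at most 1 of the 3 iPSC libraries held 0.5 CPM of each, so the filter itself favoured a higher level in PGCLCs and their levels are given as a description. Of the 5 genes at 0.5 CPM or more in every iPSC library, Cdx2, Gata4 and Sox17 were higher in PGCLCs, and Eomes and Cdx1 did not pass. Over all 16496 genes tested, 34.9% were higher and 40.1% lower. Hand1 had 0, 1 and 1 reads in the 3 iPSC libraries and 30740 reads over the 3 PGCLC libraries, a ratio of 1.415e+04 (95% counting interval 3917 to 1.168e+05, exact binomial, covering counting error only). Gata6 was at 0.110, 0.411 and 0.190 CPM in iPSCs and at 16.2, 23.1 and 15.9 CPM in PGCLCs. Cdx2 was at 3.20, 3.26 and 3.57 CPM and at 66.99, 102.0 and 75.1 CPM (4.57 ± 0.14 SE, limma adjusted p = 2.53e-08). The groups of these 3 genes were far apart.

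Gata4 (1.74 ± 0.11 SE) and Sox17 (1.601 ± 0.25 SE) were also higher in PGCLCs, at limma adjusted p = 1.48e-06 and 3.49e-04. Mesp1 and Mixl1 averaged 0.775 and 3.477 CPM in PGCLCs, against 0.0652 and 0.5095 CPM in iPSCs. Eomes was at 14.4, 14.5 and 14.2 CPM in iPSCs and 21.2, 11.04 and 19.3 CPM in PGCLCs (0.20, 95% interval -0.28 to 0.68), and Cdx1 at 28.9, 30.2 and 30.1 CPM and 32.4, 16.6 and 29.5 CPM (-0.24, 95% interval -0.72 to 0.24). Without PGCLC vehicle replicate 2, Eomes was 0.49 higher in PGCLCs (limma adjusted p = 2.44e-06), and Cdx1 still overlapped. Of the other lists, some genes of which also reached the filter through the PGCLCs alone, 21 of 26 streak and mesoderm genes were higher and 2 lower (median 3.12), and all 8 naive pluripotency genes were lower. Of the fibroblast markers 4 of 5 were higher (median 5.89), and of the trophoblast genes 6 of 8 were higher and 1 lower (median 3.73). Their part in the members' differences was not tested.

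The vehicle PGCLCs of both experiments also differed, which compares inductions that the labels do not date. Mesp1 and Eomes were higher in the direct than in the derived vehicle PGCLCs (2.59 ± 0.19 SE and 0.89 ± 0.21 SE, limma adjusted p = 4.19e-05 and 0.00863) and Gata6 was lower (-0.94 ± 0.14 SE, limma adjusted p = 0.00118). Over all 16378 genes 20.6% were higher and 23.3% lower. The other members stood between -0.12 (Gata4, limma adjusted p = 0.292) and 1.10 (Mixl1, limma adjusted p = 0.0670), with Cdx1 at 0.47 (limma adjusted p = 0.102), Sox17 at 0.22, Foxa2 at 0.20, Hand1 at 0.03 and Cdx2 at 0.00. Without derived vehicle replicate 1 the count was 6 genes, and without replicate 2 it was 7, Mixl1, Hand1, Cdx1 and Cdx2 being added at 0.49, 0.23, 0.17 and 0.17. The count over all genes moved as well, from 7183 in the main fit to between 5066 and 8581 when a library was left out. In the direct vehicle PGCLCs 6 of 9 germ cell genes were lower and 1 higher, 5 of 8 naive pluripotency genes were higher, and 4 of 5 fibroblast genes were lower, with fibroblast sums of 93.1 to 98.8 CPM against 294.9 to 419.8 CPM in the derived ones. Their part in the members' differences was not tested. Medium, passage and day of induction cannot be told apart from the experiment here.

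In the iPSC dose series 6 of the 10 genes were above the filter. Cdx1 and Cdx2 rose at all 3 doses and Gata4 at 100 μM, and none fell. That was 2 of 6 genes at 1 μM, 2 of 6 at 50 μM and 3 of 6 at 100 μM, where 5.61, 13.1 and 15.3% of 16349 genes rose. The 3 doses share 1 set of vehicle libraries, so their counts are not independent. Of 5 trophoblast genes tested 1, 3 and 2 were higher at the 3 doses, and their sums were 38.2 to 43.6 CPM under the vehicle and 44.3 to 48.3, 49.5 to 57.1 and 48.2 to 51.4 CPM under BPS. Of 8 germ cell markers 3, 4 and 4 were lower, where 480, 2175 and 2520 of all 16349 genes were lower. Their sums were 388.8 to 409.1 CPM under the vehicle and 323.9 to 371.6, 315.7 to 344.0 and 342.2 to 357.2 CPM under BPS. Their part in the results below was not tested.

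Cdx1 was at 38.2, 40.2 and 38.4 CPM under the vehicle, at 50.2, 54.8 and 54.95 CPM at 1 μM, at 59.3, 60.8 and 66.8 CPM at 50 μM and at 53.6, 59.6 and 56.01 CPM at 100 μM. Every exposed library was above every vehicle library, and the ranges at 1 and 100 μM and at 50 and 100 μM overlapped. The log2 fold changes were 0.45, 0.68 and 0.53, each ± 0.06 (SE, limma adjusted p = 9.24e-05, 3.67e-07 and 4.21e-06).

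Cdx2 was at 5.64, 4.83 and 4.28 CPM under the vehicle, at 6.18, 7.39 and 8.18 CPM at 1 μM, at 7.58, 9.36 and 10.4 CPM at 50 μM and at 7.47, 9.14 and 9.75 CPM at 100 μM. Again no exposed library overlapped the vehicle. Its log2 fold changes were 0.56, 0.88 and 0.83, each ± 0.13 (SE, limma adjusted p = 0.0138, 1.11e-04 and 1.55e-04). At 1 μM the call was lost when vehicle replicate 2 (limma adjusted p = 0.0507) or 3 (0.0618) or BPS replicate 3 (0.0769) was left out, and with no filter (0.0924). In the fit of all 42 libraries Cdx1 no longer passed at any dose (limma adjusted p = 0.452, 0.108 and 0.209) and Cdx2 did at all 3.

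Gata4 was at 3.998, 3.63 and 4.35 CPM under the vehicle and at 4.92, 5.16 and 4.74 CPM at 100 μM (0.31 ± 0.11 SE, limma adjusted p = 0.0387). Leaving out any 1 of 5 of the 6 libraries ended that call, with limma adjusted p of 0.0836 and 0.154 for the vehicle libraries 1 and 2, and of 0.0829, 0.124 and 0.0585 for the BPS libraries 1, 2 and 3. Sox17 was at 0.4997, 0.866 and 0.585 CPM under the vehicle and between 0.677 and 1.39 CPM in the 9 exposed libraries, and did not pass (0.71, 0.74 and 0.58 at 1, 50 and 100 μM, limma adjusted p = 0.115, 0.0502 and 0.114). It passed without BPS replicate 1 at 1 μM (limma adjusted p = 0.0405), without vehicle replicate 2 at 50 μM (0.0286) and without BPS replicate 1 at 100 μM (0.0458), and at 50 μM also after median-ratio rescaling (0.0466). Mixl1 lay between 0.265 and 0.571 CPM in the 12 libraries and Eomes between 9.45 and 11.9 CPM, and neither passed at any dose. Hand1, Mesp1, Gata6 and Foxa2 were below the filter, with 0 to 7, 0 to 7, 5 to 20 and 2 to 11 reads per library.

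The iPSCs of the propagation experiment were exposed to 1 μM as well. Of 5 members tested, 0 passed by limma and 0 by limma-voom on reads, and 2 had an unadjusted p under 0.05, where 0.0128% of 15572 genes passed. Cdx2 was at 3.20, 3.26 and 3.57 CPM under the vehicle and at 5.68, 5.62 and 5.05 CPM under BPS. Its groups did not overlap (0.70, 95% interval 0.45 to 0.95, limma adjusted p = 0.201). Cdx1 was at 28.9, 30.2 and 30.1 CPM under the vehicle and at 35.5, 49.8 and 36.3 CPM under BPS, where replicate 2 was the highest (0.43, 95% interval 0.12 to 0.74, limma adjusted p = 0.383). Without BPS replicate 2 both passed, Cdx1 at 0.27 (limma adjusted p = 0.00249) and Cdx2 at 0.68 (limma adjusted p = 0.00360), and 1484 genes in all were called in place of 2. That library deviated from its group, with a mean chi-square per gene of 57.8 and 55.7 against replicates 1 and 3. Between replicates 1 and 3 the value was 5.94. Gata4 (0.25), Sox17 (0.23) and Eomes (-0.02) had limma adjusted p of 0.460, 0.627 and 0.928.

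**Figure D4:**
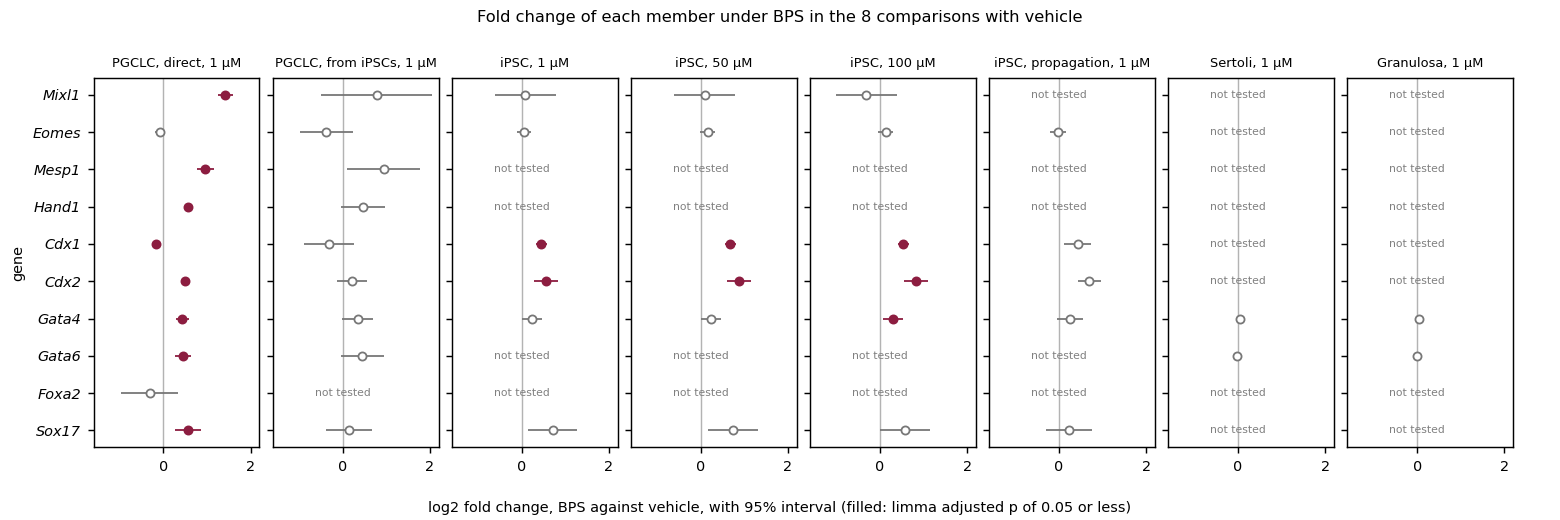
Log2 fold change of BPS against vehicle (x axis) with 95% interval for each gene (rows) in the 8 comparisons (panels, n = 3 and 3 libraries); filled points have a limma adjusted p of 0.05 or less, and genes under the filter are marked. In all, 8 genes are filled in directly exposed PGCLCs and none in derived PGCLCs, and Cdx1 and Cdx2 are filled at all 3 iPSC doses.

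In Sertoli and granulosa cells Gata4 and Gata6, which act in gonadal somatic cells, were the only members above the filter, and BPS at 1 μM did not move them past the test. Gata4 was at 350.2, 344.9 and 353.7 CPM in vehicle Sertoli cells and at 354.6, 365.1 and 359.6 CPM under BPS (0.04, 95% interval -0.02 to 0.10, limma adjusted p = 0.449). In granulosa cells it was at 339.5, 358.6 and 343.4 CPM and at 364.9, 360.7 and 348.6 CPM (0.04, 95% interval -0.01 to 0.10, limma adjusted p = 0.478). Gata6 was at 82.2, 78.97 and 80.3 CPM in vehicle Sertoli cells and at 76.2, 81.7 and 77.99 CPM under BPS (-0.03, 95% interval -0.11 to 0.05), and at 58.8, 60.1 and 59.3 and at 59.4, 60.97 and 58.2 CPM in granulosa cells (0.00, 95% interval -0.07 to 0.07). By limma 0 of 2 passed in either cell type, 0 had an unadjusted p under 0.05 and 0 passed by limma-voom, where 5.24% of 15648 and 2.6% of 15712 genes passed.

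The rest were at trace levels in the gonadal cells. Cdx2 had 0 reads in all 12 libraries, Hand1 had 1 read and Cdx1 had 3 reads over the 12. A count of 0 allows up to 3 reads, or 0.0769 to 0.116 CPM per library, for counting error only. Foxa2 had 0 reads in the 6 granulosa libraries and 2 to 9 reads in each Sertoli library. Sox17 had 6 to 16 reads per Sertoli library, Eomes 6 to 17 reads per library in both cell types, and Mixl1 and Mesp1 at most 3.

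By mean level the order of the groups was clear at its steps and not within them. For Mixl1, direct PGCLCs under BPS (17.4 CPM) were above direct vehicle PGCLCs (6.48 CPM) without overlap, the direct vehicle and the 2 derived groups overlapped in turn, and a gap lay between them and the iPSCs. The iPSC groups overlapped one another in turn, with no overlap between the lowest of them (0.365 CPM) and Sertoli cells under BPS (0.0491 CPM). Mesp1 stepped from direct BPS (9.26 CPM) to direct vehicle (4.76 CPM) to derived BPS PGCLCs (1.62 CPM) without overlap, and derived vehicle PGCLCs (0.775 CPM) overlapped the last. For Hand1 the 4 PGCLC groups overlapped each neighbour, and the gap came below them. For Gata6 the order was Sertoli, granulosa, derived and direct PGCLCs, then iPSCs, with no overlap between those 5 kinds of cells. Gata4 did not separate Sertoli from granulosa cells, at 350 to 360 and 347 to 358 CPM on average. Cdx1 was the only gene of the 10 whose highest means, 62.3, 56.4 and 53.3 CPM, were in exposed iPSCs of the dose series, and each of these groups overlapped the next of the 3. Eomes was highest in the 2 direct PGCLC groups, which overlapped each other and no other group.

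Genes with the most similar pattern over the 14 group means of log2 CPM were looked up among 17579 genes with at least 1 CPM in some group. For Mixl1 they were Dscam and Evx1os (Pearson's r = 0.990 and 0.989), for Mesp1 Foxo4 and Msgn1 (0.983 and 0.980), and for Eomes C2cd5 and Slc15a1 (0.997 and 0.996). Hand1 was most like Car4 and Mmp9 (both 0.996), Cdx2 like Dkk1 and Evx1 (both 0.995), and Cdx1 like Ildr1 and the symbol AU018091_1 (both 0.998). Gata4 was most like Qsox1 and Rab2a (both 0.998), Gata6 like Etfdh and Bag3 (0.999 and 0.996) and Sox17 like Sox3 and Aspg (0.979 and 0.978). The 14 points come from 4 kinds of cells and share 1 scaling.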

How the data were processed

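RNA-seq was analysed in 42 libraries, 3 in each of 14 groups. The authors aligned reads with Rsubread to mm10 and, after FastQC, used edgeR to make TMM-normalized values; the deposited values are log2 CPM, with a CPM of 0.0313 added. The annotation, the strand setting and the filters of that counting: not given in the sources used here. Undoing the log and scaling gave whole reads (within 0.05) in 99.9% or more of each library's values, and depths of 26693847 to 44524376 reads. Intervals and floors from reads cover counting error only.

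Each comparison was fitted with limma 3.58.1 (trend) in R 4.3.3 on genes with a CPM of 0.5 or more in at least 3 of its libraries, with two-sided Benjamini-Hochberg adjusted p over all genes and a threshold of 0.05. The fits of both PGCLC experiments were tried on simulated reads. Those had 1 spread for all genes and no deviating library, so the trial does not cover the libraries that stood apart. Levels and figures used Python 3.11.15, numpy 2.4.6, pandas 2.3.3, scipy 1.17.1 and matplotlib 3.10.9. The planned edgeR test on counts was not run; limma on the deposited values was used, and limma-voom on recovered reads. The genes and lists were chosen with earlier results of these data known. In each list the genes with the smallest adjusted p, at most 3, were named. Genes named beyond that rule (Tbx3, Dusp6, Fshr, the sort markers and Nanos3 among iPSCs) were chosen after their values were seen. Alternatives were a CPM of 1 added, no filter, median-ratio rescaling, 1 fit of all libraries, a replicate block, limma-voom on recovered reads (added after seeing the data) and leaving out each library.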

Additional observations from a re-analysis of the deposited data

Results flagged for a closer look

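With wide intervals, none of the 10 genes passed the interaction test for a different BPS effect in the direct and the derived PGCLC experiment. Of the listed genes 3 did, beside 1.97% of all genes: 1 of 29 streak and mesoderm genes, 1 of 22 upstream signals and 1 of 3 granulosa markers. The other lists had 0 calls, among 20 endoderm, 9 germ cell, 8 naive pluripotency and 5 primed epiblast genes. The same held for 8 trophoblast, 6 Sertoli, 5 fibroblast, and 2 erythroid and endothelial genes. The 3 genes are thus few among all those tested. Inha, the inhibin alpha subunit gene, differed by -1.143 on the log2 scale, direct minus derived (limma adjusted p = 0.0370), with log2 fold changes of -0.45 in the direct and 0.69 in the derived experiment. The T-box gene Tbx3 differed by -0.2819 (limma adjusted p = 0.0341), having -0.08 in the direct and 0.20 in the derived experiment. Dusp6, a feedback phosphatase of ERK signaling, differed by 0.4924 (limma adjusted p = 0.0119), with 0.34 and -0.15. In the derived experiment itself none of the 3 passed (limma adjusted p = 0.227, 0.211 and 0.290). Inha and Tbx3 no longer passed the interaction test with no filter (0.0658 and 0.0570), in the fit of all 42 libraries (0.107 and 0.141) and without most single libraries, while Dusp6 passed under every alternative run.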

How the results depend on the processing

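In directly exposed PGCLCs the fit of all 42 libraries called 2 of the 10 genes in place of 8, and 1619 of 19591 genes in all. With no filter, 2705 of 22186 genes passed. In derived PGCLCs the 42-library fit called 721 of 19591 genes and none of the 10. At 1 μM in iPSCs, 1 of the genes passed with no filter, and 1 to 3 when a library was left out (602 to 2134 over all genes). In propagation iPSCs 1 passed in the 42-library fit, and 0 to 2 when a library was left out. Leaving out a library gave 4 to 7 genes between iPSCs and PGCLCs and 3 to 7 between the vehicle PGCLC groups. Over all genes, 10710 to 11842 and 5066 to 8581 were called in these comparisons. Without PGCLC vehicle replicate 1, 2 or 3 in the first of these, Hand1, Mesp1 and Gata6 fell below the filter and were not tested. As these genes reach that filter through the PGCLC libraries, where they are high, their calls in the other fits are a description and no support. The cause of the other changes was not tested.

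A change of sign occurred in 24 results under 65 settings, and 1 of these had a limma adjusted p of 0.05 or less, Cdx2 between the vehicle PGCLC groups without derived vehicle replicate 2 (0.17). Rescaling gave -0.0017 for Mesp1 in the interaction and limma-voom -0.15 for Hand1 between derived PGCLCs and iPSCs. Rescaling also gave -0.019 for Gata6 in granulosa cells and 0.022 for Cdx2 between the vehicle PGCLC groups, and limma-voom gave 0.0071 for the latter. When a library was left out, log2 fold changes ran from -0.084 to 0.31 for Sox17 in derived PGCLCs, from -0.10 to 0.31 for Mixl1 and from -0.0082 to 0.12 for Eomes at 1 μM, and from -0.095 to 0.27 for Mixl1 at 50 μM. They ran from -0.066 to 0.025 for Eomes in propagation iPSCs, from -0.015 to 0.019 for Gata6 in granulosa cells, and from -0.42 to 0.057 for Cdx1 between iPSCs and PGCLCs. In the interaction they ran from -0.32 to 0.39 for Mesp1, -0.13 to 0.25 for Hand1, -0.034 to 0.44 for Cdx1, -0.081 to 0.21 for Gata4, -0.21 to 0.19 for Gata6 and -0.19 to 0.23 for Foxa2, and between derived PGCLCs and iPSCs from -0.13 to 0.38 for Hand1, -0.022 to 0.27 for Gata4, -0.31 to 0.51 for Gata6 and -0.31 to 0.082 for Sox17. Between the vehicle PGCLC groups they ran from -0.098 to 0.23 for Hand1, -0.13 to 0.17 for Cdx2, -0.033 to 0.33 for Foxa2 and -0.017 to 0.38 for Sox17. In derived PGCLCs they ran from -0.41 to 0.011 for Otx2, -0.20 to 0.18 for Sox3 and -0.54 to 0.057 for Cdh5.

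Counts over all genes also moved by over 1.5 times in propagation iPSCs (2, against 23 with no filter, 2046 in the 42-library fit and 0 to 1484 without 1 library), Sertoli cells (820, against 6, 207 and 43 to 1239), granulosa cells (409, against 9, 38 and 134 to 402) and the interaction (333, against 106 to 769 without 1 library). At 1 μM in iPSCs 795 passed with no filter, and the BPS effect in derived PGCLCs against that in iPSCs had 1 gene, against 888 in the 42-library fit, 0 with no filter and 0 to 2 without 1 library.

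Same-numbered libraries did not deviate together throughout (correlations of -0.55 to 0.33), so the numbers were not taken to pair them. With a replicate block, 8 of the 10 genes passed in the direct PGCLC experiment. The block brought Sox17 at 50 μM (limma adjusted p = 0.0294) and Mixl1 between the vehicle PGCLC groups (0.0253) past the threshold, ended the interaction call of Inha (0.0899), and called 1298 genes in Sertoli cells, 138 in the interaction and 0 in propagation iPSCs. The planned edgeR test on recovered reads was not run, and limma-voom on those reads was run in its place.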
